A study of Mus musculus with 6 samples.

Results

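The genes described here encode the nuclear-encoded subunits of the 5 complexes of oxidative phosphorylation. They were taken by symbol from the probe sets annotated with 1 gene: symbols that begin with Nduf, Uqcr, Atp5 or Cox4 to Cox8, and Sdha, Sdhb, Sdhc, Sdhd and Cyc1, without pseudogenes and without the Ndufaf assembly factors. This gave 108 probe sets and, with the brightest probe set kept for each gene, 83 of the 19938 genes measured. Complex I had 36 of them, complex II 4, complex III 9, complex IV 17 and complex V 17. The rule itself uses symbols, and the mean signal only to decide between probe sets of one gene. It was chosen with earlier results of these data known. Some subunits, among them those encoded in the mitochondrial genome, were not analysed here.

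The arrays compared B lineage cells of Em-Myc mice, whose Myc transgene is driven by an immunoglobulin heavy chain enhancer, on Mouse Gene 1.0 ST microarrays. All 3 groups carry this transgene, and each had 2 arrays. The premalignant group held sorted splenic B cells from premalignant Em-Myc mice, in independent preparations and without a hairpin; one label field calls them normal B cells. The other groups held purified primary B-cell lymphomas generated with a short hairpin RNA against Ezh2, the catalytic subunit of polycomb repressive complex 2: shEzh2.781 in one and shEzh2.556 in the other. The lymphoma cells were enriched by removing CD43-positive cells. Per the labels, at least 95% of the purified cells stained for B220 and were GFP-positive. The labels give no age, sex or strain, and separate mice are not stated for the arrays of one hairpin. The p-values therefore measure a spread between samples that may be technical. Lymphomas that lack a hairpin were not analysed here. Malignancy, hairpin and cell preparation cannot be told apart in these groups.

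Oxidative phosphorylation is the process by which the inner mitochondrial membrane turns the oxidation of nutrients into ATP. Complex I takes electrons from NADH and complex II takes them from succinate; complex III passes them from ubiquinol to cytochrome c, and complex IV passes them on to oxygen. Complex V, the ATP synthase, uses the proton gradient that complexes I, III and IV build up. Several of the small subunits of complex IV exist as a widely expressed form and a form of heart and skeletal muscle or of another tissue. Myc is known as an activator of many nuclear genes of mitochondrial function, and in these mice it is expressed before and after lymphomas form.

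The subunit genes differed little between lymphomas and premalignant cells. In the limma fit over all genes, 1 of the 83 was higher in the lymphomas, Uqcr10 of complex III, and 1 was lower, Cox6a2 of complex IV, at a Benjamini-Hochberg adjusted p under 0.05. These calls amounted to 2.41% of the subunit genes, against 15.2% of all 19938 genes. A higher call was made for 5.6% of all genes and a lower call for 9.61%. The lymphoma value is the mean of the hairpin groups, and differences are on the log2 scale of the deposited signal. The median difference of the subunit genes was 0.088, against 0.025 over all genes, and 67 of the 83 differences (80.7%) were above 0, against 55.6% of all genes. Among genes with a mean signal of at least 7, the medians were 0.087 and -0.029, with 81.0% and 45.9% above 0. With each array left out in turn, the subunit median lay between 0.012 and 0.16. The range of the differences was -1.04 to 0.51, and 82 of the 83 lay within 1 of 0.

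The absence of calls came with fairly narrow intervals. For 70 of the 83 subunit genes (84.3%), the 95% confidence interval of the difference lay within 0.5 of 0 on the log2 scale, that is within a 1.41-fold change in either direction; this held for 75.9% of all genes. Most subunit genes were bright: 79 of them had a mean signal of at least 7, and the other 4 were Ndufa4l2, Cox7b2, Cox8b and Cox8c. Among the 10306 genes with a mean signal of at least 7, 23.1% were called and 65.5% had an interval that narrow. The corresponding shares of the 79 subunit genes were 2.53% and 83.5%. At an unadjusted p under 0.05 there were 10 subunit genes (12.0%), against 26.8% of all genes.

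**Figure D1:**
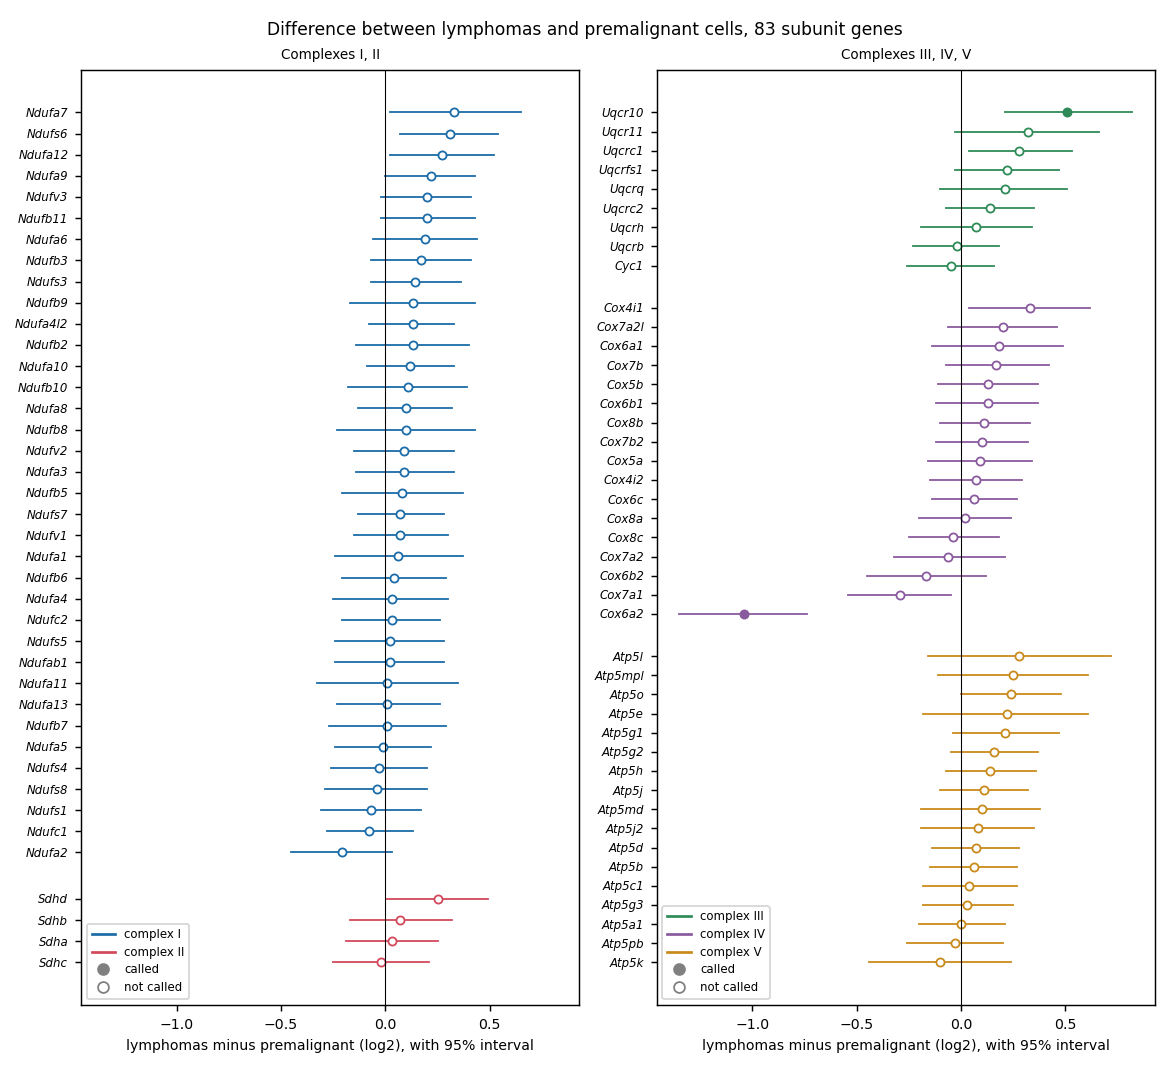
Difference between lymphomas and premalignant cells for each of the 83 subunit genes, as log2 signal on the x axis, with genes on the y axis sorted within each complex; points are the fitted differences, bars the 95% intervals, and filled points the genes called. All but 1 of the differences lie between -0.29 and 0.51, and Cox6a2 at -1.04 stands apart from them.

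Before the single genes, a few facts of the whole series bear on these values. Ezh2 was lower in the lymphomas by 1.55 (SE 0.1, adjusted p = 1.31e-06, limma), with signals of 12.64 and 12.7 on the premalignant arrays and between 10.92 and 11.3 on the 4 lymphoma arrays. Myc signal was 13.11 and 13.05 in premalignant cells and between 13.18 and 13.27 in lymphomas (difference 0.14, SE 0.09, adjusted p = 0.402). The 8 B cell markers measured were bright on every array, with no gene below 10.37. They were not level between groups: 1 was called higher and 3 lower in lymphomas, with differences from -0.49 to 0.55. Markers of other cells also moved with the groups. The summed linear signal of 11 neutrophil markers was 9633 to 11078 in premalignant cells, 3629 to 6114 with shEzh2.781 and 978 to 1605 with shEzh2.556. For 11 salivary secretory markers it was 474 to 602, 831 to 1065 and 12427 to 17917 in the same order. The 6 erythroid markers measured summed to 2190 to 2687, 624 to 982 and 1701 to 2783. All 6 were called lower with shEzh2.781 than with shEzh2.556, against 4.53% of all genes. For 9 T and NK cell markers the sums were 998 to 1472, 658 to 831 and 779 to 799. Of the 9, 4 were called lower in lymphomas (44.4%, against 9.61% of all genes). The part of these other cells in the results on subunit genes was not tested. In bulk samples like these, fewer cells of a type and less RNA per cell cannot be told apart.

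Cox6a2 was the subunit gene with the largest difference. It encodes the form of cytochrome c oxidase subunit 6A that is known from heart and skeletal muscle, while Cox6a1 encodes the widely expressed form. Cox6a2 signal was 8.70 and 9.14 on the premalignant arrays, 7.78 and 8.0 with shEzh2.781 and 8.01 and 7.72 with shEzh2.556. All 4 lymphoma arrays lay below both premalignant arrays, and the hairpin groups overlapped. The group means were 8.92 ± 0.31 (SD, n = 2), 7.89 ± 0.15 and 7.87 ± 0.21. Cox6a2 was 2.06-fold lower in the lymphomas (difference -1.04, SE 0.14, 95% interval -1.35 to -0.74, adjusted p = 0.000293 by limma). It was 2.05-fold lower with shEzh2.781 (adjusted p = 0.00139) and 2.07-fold lower with shEzh2.556 (adjusted p = 0.00076), against the same premalignant arrays. Between the hairpins the difference was 0.02, with a 95% interval from -0.33 to 0.37. The call was kept without either premalignant array, with differences of -1.26 without the first and -0.82 without the second.

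Marker genes of other kinds of cell were set beside Cox6a2. Of 10 striated muscle markers, none was called in lymphomas against premalignant cells, and their median difference was 0.065; their summed linear signal was 1043 to 1254 in premalignant cells, 1050 to 1126 with shEzh2.781 and 1193 to 1316 with shEzh2.556. All 11 neutrophil markers were called lower in lymphomas, against 9.61% of all genes, with a median difference of -2.05. Plasmacytoid dendritic cell markers were lower as well, but this list was chosen after the values were seen, so its count is no test. Of the 8 measured, 6 were lower in lymphomas (75.0%, against 9.61% of all genes) and none higher, with a median difference of -0.7. Their summed signal was 10960 to 13144 in premalignant cells, 7578 to 7633 with shEzh2.781 and 6855 to 7212 with shEzh2.556. Siglech, a surface lectin of these cells, had signals of 8.35 and 9.26 in premalignant cells and between 5.78 and 6.28 in lymphomas. Ccr9, a chemokine receptor, had 8.07 and 9.14 in premalignant cells and between 5.93 and 6.57 in lymphomas. Cox6a2, Siglech and Ccr9 were each brighter on the second premalignant array than on the first. Most genes had this order: 34.7% of all genes were lower on the second array, and the median difference was 0.076. Several of the other listed genes, such as Spib, Tcf4, Irf8 and Bst2, are also expressed in B cells, and the part of plasmacytoid dendritic cells in the Cox6a2 result was not tested.

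The widely expressed form did not follow Cox6a2. Cox6a1 signal was 11.75 and 11.24 in premalignant cells, 11.78 and 11.77 with shEzh2.781 and 11.74 and 11.41 with shEzh2.556. The premalignant arrays differed by more than the group means did, and the groups overlapped. The difference between lymphomas and premalignant cells was 0.18 (SE 0.14, 95% interval -0.14 to 0.49, adjusted p = 0.494, limma). The promoter of Cox6a1 is shown here because this gene is the counterpart of the subunit gene that changed most. These are the 250 bases before the start site in RefSeq (GRCm38.p6, chr5:115348959-115349208, minus strand), with matches to an NRF1 motif and an ETS motif in capitals.
Cox6a1: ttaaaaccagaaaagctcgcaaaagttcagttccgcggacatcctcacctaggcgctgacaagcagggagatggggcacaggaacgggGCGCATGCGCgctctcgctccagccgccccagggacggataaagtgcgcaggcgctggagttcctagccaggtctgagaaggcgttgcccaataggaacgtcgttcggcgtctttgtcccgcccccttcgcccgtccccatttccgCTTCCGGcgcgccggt
Cox6a2 was not matched in the RefSeq promoter table. The NRF1 match, which reads on both strands, begins 162 bases before the start site and the ETS match 16 bases before it; a match describes the letters only and is no measured site.

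The other tissue forms of complex IV showed smaller differences. Among the 19 genes of subunit families with more than 1 form, which include the Cox4, Cox6, Cox7 and Cox8 forms and the c-ring genes of complex V, Cox6a2 was the only one called in lymphomas against premalignant cells. Cox7a1, the muscle form of subunit 7A, had signals of 7.54 and 7.57 in premalignant cells, 7.09 and 7.14 with shEzh2.781 and 7.59 and 7.23 with shEzh2.556. The shEzh2.781 arrays lay below both premalignant arrays, while the shEzh2.556 arrays spanned them. The difference was -0.29 for all lymphomas (adjusted p = 0.114) and -0.44 (SE 0.13) for shEzh2.781 alone (adjusted p = 0.0526). With shEzh2.781 it passed among genes with a mean of at least 7 (adjusted p = 0.0442) and with only the groups compared (0.0301). Without the first shEzh2.556 array, Cox7a1 passed in lymphomas against premalignant cells (-0.38, adjusted p = 0.0374). Its widely expressed counterpart Cox7a2 differed by -0.06 (95% interval -0.32 to 0.21).

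Cox4i1, the common form of subunit 4, which carries part of the regulation of the enzyme by ATP, was at 11.18 and 10.94 in premalignant cells, 11.43 and 11.53 with shEzh2.781 and 11.52 and 11.06 with shEzh2.556. Both shEzh2.781 arrays were above the premalignant arrays, and the shEzh2.556 arrays overlapped them. The difference in lymphomas was 0.33 (SE 0.13, adjusted p = 0.135), the highest of complex IV. Without the second shEzh2.556 array it was 0.44 and passed (adjusted p = 0.0307). Cox4i2, the lung and hypoxia form of this subunit, was dim, between 6.97 and 7.4 on the 6 arrays. Its difference was 0.07 between lymphomas and premalignant cells and -0.3 between shEzh2.781 and shEzh2.556 (adjusted p = 0.115).

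The remaining forms of complex IV subunits gave intervals that included 0. Cox6b1 differed by 0.13 and Cox6b2, a form known from testis, by -0.17 (adjusted p = 0.475). Cox7b2 and Cox8c, also known from testis, and Cox8b, a muscle form, were among the dimmest subunit genes, with differences of 0.1, -0.04 and 0.11. Cox8a, the common form of subunit 8, differed by 0.02 (95% interval -0.2 to 0.24). Cox7a2l, which is known as a factor that joins complexes III and IV into supercomplexes, differed by 0.2 (adjusted p = 0.314). Of the other complex IV genes, Cox5a, Cox5b, Cox6c and Cox7b had differences of 0.09, 0.13, 0.06 and 0.17. Over the 17 genes the median difference was 0.088, with 12 above 0.

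Uqcr10 encodes a small subunit of complex III that sits beside cytochrome c1. Its signal was 9.98 and 9.77 in premalignant cells, 10.27 and 10.28 with shEzh2.781 and 10.76 and 10.22 with shEzh2.556. All 4 lymphoma arrays were above both premalignant arrays; the first shEzh2.556 array was the highest and the second the lowest of the 4. The means were 9.87 ± 0.15 (SD, n = 2), 10.28 ± 0.01 and 10.49 ± 0.38. Uqcr10 was 1.43-fold higher in lymphomas (difference 0.51, SE 0.14, 95% interval 0.21 to 0.82, adjusted p = 0.0275, limma). Against premalignant cells, the difference was 0.62 with shEzh2.556 (SE 0.16, adjusted p = 0.0207) and 0.41 with shEzh2.781 (adjusted p = 0.153). This call depended on single arrays. The lymphoma difference was 0.62 without the first premalignant array (adjusted p = 0.0731), 0.4 without the second (adjusted p = 0.218) and 0.38 without the first shEzh2.556 array (adjusted p = 0.056). It also no longer passed when the 4 lymphomas were fitted as 1 group (adjusted p = 0.129).

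The promoter of Uqcr10 is given as that of the one subunit gene called higher in lymphomas. RefSeq (GRCm38.p6) places these 250 bases before the start site at chr11:4704345-4704594 on the minus strand. None of the 4 motifs searched was found in them or in the 50 bases after the start.
Uqcr10: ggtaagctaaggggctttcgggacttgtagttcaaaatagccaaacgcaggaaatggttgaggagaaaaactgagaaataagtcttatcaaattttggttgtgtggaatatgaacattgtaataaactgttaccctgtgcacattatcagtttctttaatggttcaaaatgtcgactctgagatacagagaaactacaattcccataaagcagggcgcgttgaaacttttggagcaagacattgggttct

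None of the other 8 complex III genes passed the test, and 6 of their differences were above 0. Uqcr11, another small subunit, had signals of 10.87 and 10.64 in premalignant cells, 11.05 and 11.08 with shEzh2.781 and 11.41 and 10.75 with shEzh2.556, so that the second shEzh2.556 array lay among the premalignant ones. Its difference was 0.32 (adjusted p = 0.229), and 0.48 without that array (adjusted p = 0.0196). Uqcrc1, one of the large core proteins on the matrix side, had 11.36 and 11.67 in premalignant cells and between 11.7 and 11.89 in lymphomas. The groups did not overlap, but the highest premalignant and lowest lymphoma values nearly met. Its difference was 0.28 (adjusted p = 0.116). Uqcrfs1, the Rieske iron-sulfur protein, differed by 0.22, Uqcrq by 0.21, Uqcrc2 by 0.14 and Uqcrh by 0.07. Cyc1, which encodes cytochrome c1, and Uqcrb were at -0.05 and -0.02. The median over the 9 genes was 0.21, the highest of the 5 complexes, and in 3 of the 9 every lymphoma array exceeded both premalignant ones. Over all 83 subunit genes 14 did so (16.9%), against 12.7% of all genes, and 1 gene had them below (1.2%), against 16.1% of all genes. Among genes with a mean signal of at least 7, the shares above were 17.7% of subunit genes and 16.8% of all. The shares below were 1.27% and 24.5%.

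In the limma fit behind these values, no gene of complex I was called in any comparison. Under other settings that kept all 6 arrays, Ndufa2, Ndufb2, Ndufs4, Ndufs6 and Ndufv3 each passed in a comparison of one hairpin with premalignant cells or between the hairpins. In lymphomas against premalignant cells the 36 differences ranged from -0.21 to 0.33 with a median of 0.084, which lay between -0.025 and 0.19 with each array left out, and 33 of the 36 intervals lay within 0.5 of 0. The core subunits carry the flavin and the iron-sulfur clusters or bind ubiquinone. The 6 that were measured, Ndufs1, Ndufs3, Ndufs7, Ndufs8, Ndufv1 and Ndufv2, had differences of -0.07, 0.14, 0.07, -0.04, 0.07 and 0.09. Their median was 0.074, and the intervals of all 6 lay within 0.5 of 0 in every comparison. The 30 genes named as accessory subunits had a median of 0.095. Ndufa4 is counted with them by its name, although its protein is known as a subunit of complex IV; it differed by 0.03.

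The complex I genes nearest the threshold were accessory subunits. Ndufs6, which holds a zinc ion near the iron-sulfur arm of the complex, had signals of 9.85 and 9.94 in premalignant cells, 10.21 and 10.25 with shEzh2.781 and 10.33 and 10.03 with shEzh2.556. All 4 lymphoma arrays were above the premalignant ones. The difference was 0.31 (SE 0.11, 95% interval 0.07 to 0.54, adjusted p = 0.0853), which makes it the subunit gene just outside the threshold, while Uqcr10 at 0.0275 was just inside. Ndufa7 had 9.45 and 9.25 in premalignant cells, 9.77 and 9.8 with shEzh2.781 and 9.86 and 9.3 with shEzh2.556. Its shEzh2.556 arrays lay far apart, the second of them among the premalignant values. Its difference was 0.33 (adjusted p = 0.157). Without the second shEzh2.556 array, Ndufs6 (0.38, adjusted p = 0.0357) and Ndufa7 (0.47, adjusted p = 0.0183) both passed. Ndufa12, at 0.27, and Ndufa9, at 0.22, followed.

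The 4 genes of complex II, which is also succinate dehydrogenase of the TCA cycle, were close to level. Sdha, the flavoprotein, had signals of 11.74 and 11.68 in premalignant cells and between 11.63 and 11.83 in lymphomas, and the groups overlapped (difference 0.03, 95% interval -0.19 to 0.25). Sdhb, the iron-sulfur subunit, was at 11.29 and 11.09 in premalignant cells and between 11.14 and 11.38 in lymphomas (0.07, adjusted p = 0.736). Sdhc, a membrane anchor, was at 10.75 and 10.56 and between 10.47 and 10.75 (-0.02, adjusted p = 0.929). These 3 genes had overlapping groups. For Sdhd, the other anchor, all 4 lymphoma arrays, between 11.18 and 11.39, were above the premalignant arrays at 11.15 and 10.89. Its difference was 0.25 (SE 0.11, adjusted p = 0.175). All 4 intervals lay within 0.5 of 0.

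Complex V had no call in lymphomas against premalignant cells and a median difference of 0.1, with 15 of 17 genes above 0. The F1 head holds the catalytic sites. Its genes Atp5a1, Atp5b, Atp5c1, Atp5d and Atp5e had differences of 0.0, 0.06, 0.04, 0.07 and 0.22, and their median was 0.061. The 12 genes of the membrane part and the stalk had a median of 0.12. The c-ring that turns in the membrane is made from the products of Atp5g1, Atp5g2 and Atp5g3, 3 genes whose mature proteins are the same. These genes had differences of 0.21 (adjusted p = 0.274), 0.16 (adjusted p = 0.332) and 0.03 (adjusted p = 0.873). Of the stalk genes, Atp5o differed by 0.24 and Atp5pb by -0.03. Atp5l had the widest interval of all complex V genes, from -0.16 to 0.72 around 0.28, with signals of 10.28 and 9.45 on the shEzh2.556 arrays.

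Each hairpin group was also set against the premalignant arrays, which both comparisons share. With shEzh2.781 no subunit gene was higher and 1 was lower (Cox6a2), or 1.2% of the 83 against 10.8% of all genes (4.6% higher and 6.24% lower). At an unadjusted p under 0.05 there were 10 (12.0%, against 22.4% of all genes). With shEzh2.556, 1 was higher (Uqcr10) and 1 lower (Cox6a2), or 2.41% against 18.2% of all genes (6.8% higher and 11.4% lower), and 7 had an unadjusted p under 0.05 (8.43%, against 33.5%). The medians were 0.13 and 0.056, where all genes had -0.028 and 0.071. With shEzh2.781, 70 of 83 differences were above 0 (84.3%, against 44.0% of all genes); with shEzh2.556, 53 were (63.9%, against 59.8%). With shEzh2.556 the order of the medians turned among genes with a mean signal of at least 7: 0.047 for subunit genes, of which 62.0% were above 0, and -0.068 for all, of which 42.3% were. With shEzh2.781 those bright genes had medians of 0.14 and -0.0037, with 86.1% and 49.3% above 0.

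The shEzh2.781 arrays were often both above the premalignant arrays. That was the case for 47 of the 83 subunit genes (56.6%), against 22.0% of all genes, and both lay below for 3 (3.61%), against 28.6%. With shEzh2.556 the counts were 20 above (24.1%, against 35.8%) and 7 below (8.43%, against 26.5%). Among genes with a mean signal of at least 7, the shares above were 59.5% of subunit genes and 31.8% of all with shEzh2.781, and 21.5% and 26.8% with shEzh2.556. All 9 complex III genes and 13 of 17 complex V genes had both shEzh2.781 arrays above. The differences were small: with shEzh2.781, complex I had a median of 0.13, complex II 0.059, complex III 0.2, complex IV 0.09 and complex V 0.15. With each array left out in turn these lay between 0.051 and 0.21, -0.006 and 0.14, 0.19 and 0.29, 0.015 and 0.17, and 0.083 and 0.23. With shEzh2.556 the medians were 0.0, 0.057, 0.17, 0.073 and 0.059. Their ranges were -0.13 to 0.16, -0.018 to 0.15, 0.0006 to 0.34, -0.036 to 0.16 and -0.011 to 0.11, so that only complex III stayed above 0. Without the first shEzh2.556 array the shEzh2.556 median over all subunit genes was -0.046, and without the second it was 0.16. Ndufa2 of complex I was the gene nearest the threshold with shEzh2.556. It had signals of 10.72 and 10.65 in premalignant cells, 10.65 and 10.68 with shEzh2.781 and 10.45 and 10.13 with shEzh2.556. Only the shEzh2.556 arrays were low, at -0.4 from the premalignant mean (SE 0.13, adjusted p = 0.0511). Ndufa2 passed as lower without the first shEzh2.556 array (-0.56, adjusted p = 0.0275), with arrays centred on their median (-0.43, adjusted p = 0.0421), with a mean of at least 7 (adjusted p = 0.0389), with the mean of probe sets (0.0499) and with an intensity trend in the variance (0.0229).

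Between the hairpins, 1 of the 83 subunit genes was called, Atp5md, which was higher with shEzh2.781; this was 1.2%, against 10.0% of all genes. Higher calls were made for 5.5% and lower calls for 4.53% of all genes. At an unadjusted p under 0.05 there were 12 subunit genes (14.5%, against 31.0%). The differences ranged from -0.3 to 0.58, and 58 of the 83 intervals (69.9%) lay within 0.5 of 0, against 57.7% of all genes. Both shEzh2.781 arrays were above both shEzh2.556 arrays for 28 subunit genes (33.7%, against 25.0% of all genes) and below them for 8 (9.64%, against 40.1%). The median was 0.073 for subunit genes and -0.071 for all genes. The gaps in the medians and in the share above depended on the dim genes in the background, while the gap in the share below remained without them. Among genes with a mean signal of at least 7 the medians were 0.081 for subunit genes and 0.08 for all. Of those bright genes, 35.4% of the subunit genes and 42.6% of all had both shEzh2.781 arrays above, and 6.33% and 22.4% had them below. Over all 83 subunit genes and all 19938 genes, the medians became 0.19 and 0.044 with each array centred on its median. That moved the median of all genes by more than 0.1, from -0.071. With quantile normalization the medians were 0.0047 and -0.017. Without the second shEzh2.556 array the subunit median was -0.063.

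Atp5md encodes a small membrane subunit of the ATP synthase that is known to help its dimers hold together. Its signal was 12.00 and 11.68 in premalignant cells, 12.18 and 12.28 with shEzh2.781 and 11.83 and 11.46 with shEzh2.556. The shEzh2.781 arrays were the highest of the 6, and the shEzh2.556 arrays overlapped the premalignant ones. The means were 11.84 ± 0.23 (SD, n = 2), 12.23 ± 0.07 and 11.65 ± 0.26. Atp5md was 1.5-fold higher with shEzh2.781 than with shEzh2.556 (difference 0.58, SE 0.15, 95% interval 0.25 to 0.91, adjusted p = 0.0338, limma). Against premalignant cells neither hairpin group passed (0.39, adjusted p = 0.138, and -0.19, adjusted p = 0.378). The hairpin difference was 0.53 without the second shEzh2.781 array (adjusted p = 0.1), 0.4 without the second shEzh2.556 array (adjusted p = 0.154) and 0.5 with quantile normalization (adjusted p = 0.0999), none of which passed. The other probe sets of Atp5md, one at 10.76 and 10.92 with shEzh2.781 and 10.46 and 10.09 with shEzh2.556, and one at 11.22 and 11.33 against 10.92 and 10.51, had the same order of groups.

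The Atp5md promoter is printed because this was the one subunit gene called between the hairpins. The 250 bases before its start site lie at chr19:47090648-47090897 on the minus strand of GRCm38.p6, from RefSeq, and hold none of the motifs; an ETS match lies in the 50 bases after the start, which are not printed.
Atp5md: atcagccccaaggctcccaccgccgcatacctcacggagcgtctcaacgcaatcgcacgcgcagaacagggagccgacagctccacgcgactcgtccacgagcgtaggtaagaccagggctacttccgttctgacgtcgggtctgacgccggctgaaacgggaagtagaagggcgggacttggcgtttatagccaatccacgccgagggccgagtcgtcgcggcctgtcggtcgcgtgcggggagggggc

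The hairpin differences that came closest after Atp5md were mostly in accessory subunits of complex I. Ndufa2 was at 0.37 (adjusted p = 0.0812), Cyc1 of complex III at 0.3 (adjusted p = 0.0957), Ndufs4 at 0.33 (adjusted p = 0.102), Ndufa1 at 0.43 (adjusted p = 0.103), Ndufb10 at 0.38 (adjusted p = 0.118) and Ndufb2 at 0.36 (adjusted p = 0.119). Cyc1 signals were 11.9 and 11.83 with shEzh2.781 and 11.61 and 11.53 with shEzh2.556, and the premalignant arrays at 11.79 and 11.75 lay between them. With arrays centred on their median, Atp5md, Cyc1, Ndufa2, Ndufb2 and Ndufs4 all passed as higher with shEzh2.781. The core subunits of complex I had a median hairpin difference of -0.011, and the 30 accessory ones 0.1. Complexes I to V had medians of 0.09, 0.012, 0.081, 0.0034 and 0.088. Each of these changed sign when an array was left out, over ranges of -0.019 to 0.22, -0.046 to 0.13, -0.072 to 0.22, -0.12 to 0.13 and -0.072 to 0.22.

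**Figure D2:**
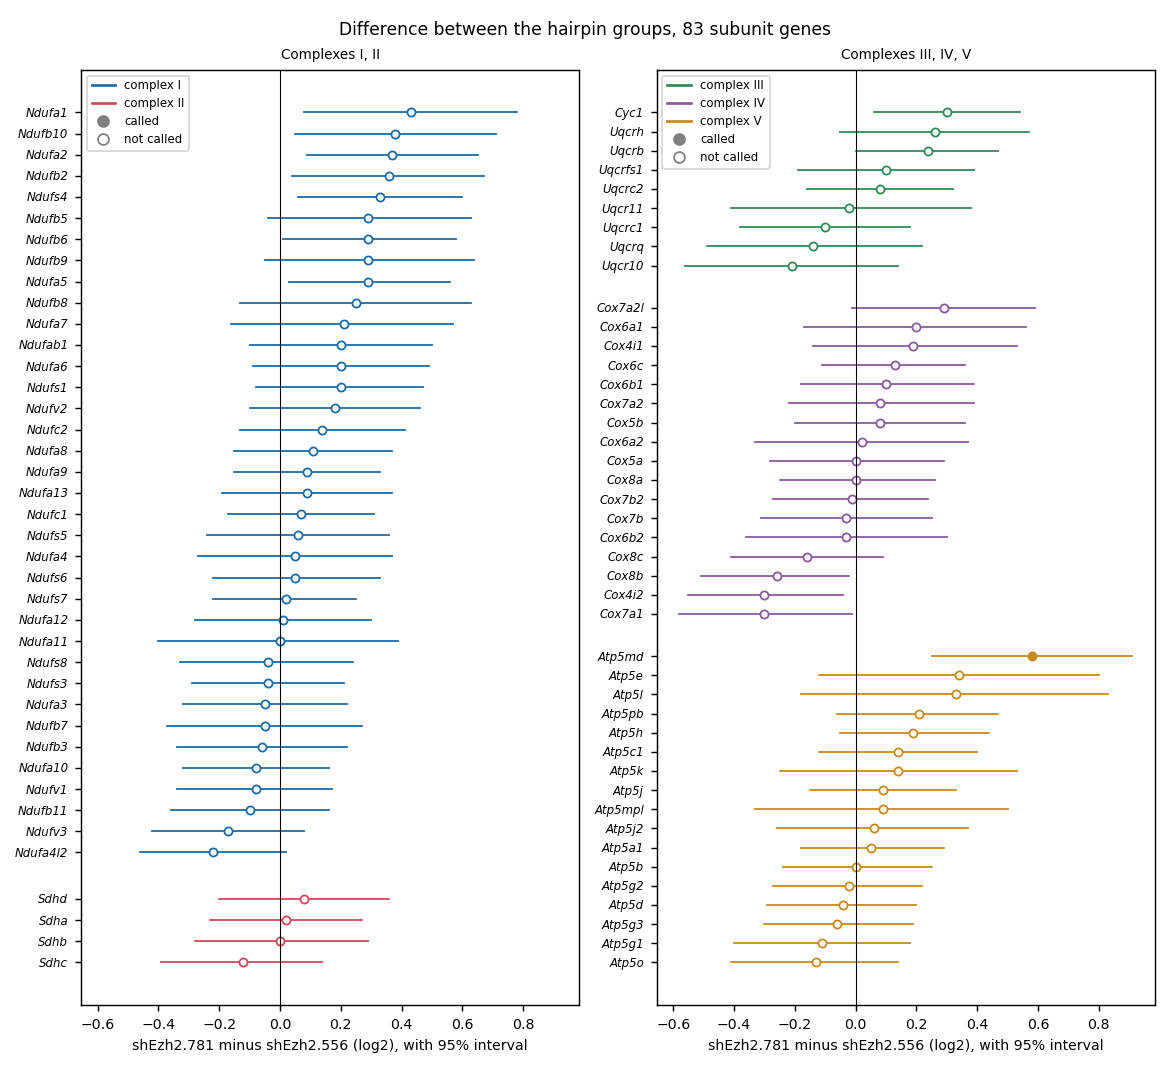
Difference between the shEzh2.781 and shEzh2.556 groups for each of the 83 subunit genes, as log2 signal on the x axis, with genes on the y axis sorted within each complex; points are the fitted differences, bars the 95% intervals, and the filled point the gene called. Atp5md at 0.58 is the only gene called, and accessory subunits of complex I such as Ndufa1 at 0.43 follow it.

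Most subunit genes shifted in the same direction between the arrays of a group. The shares of all genes given beside them include dim genes. No comparison with genes of a mean signal of at least 7 was made here, and an array offset that depends on signal was not tested. In the shEzh2.556 group the second array was below the first for 74 of 83 subunit genes (89.2%, against 52.3% of all genes), with a median difference of -0.21, where all genes had -0.011. It was lower by more than 0.3 for 31 of them (37.3%, against 7.01%). The premalignant arrays showed the same to a smaller extent, with 61 of 83 lower on the second array (73.5%, against 34.7%) and a median of -0.12, where all genes had 0.076. The shEzh2.781 arrays were close, with 29 of 83 lower on the second (34.9%) and a median of 0.031. In the shEzh2.556 group all 12 membrane and stalk genes of complex V were lower on the second array, with a median of -0.33, as were 28 of the 30 accessory genes of complex I, with a median of -0.26. The F1 genes had a median of 0.025, although Atp5e was at 9.82 and 8.98. Measured from the mean of the premalignant arrays, the median offset of the 83 genes was 0.061 and -0.061 on those arrays, 0.11 and 0.14 with shEzh2.781 and 0.16 and -0.046 with shEzh2.556. The difference between the shEzh2.556 arrays was thus larger than the median difference of the 83 genes in any comparison.

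**Figure D3:**
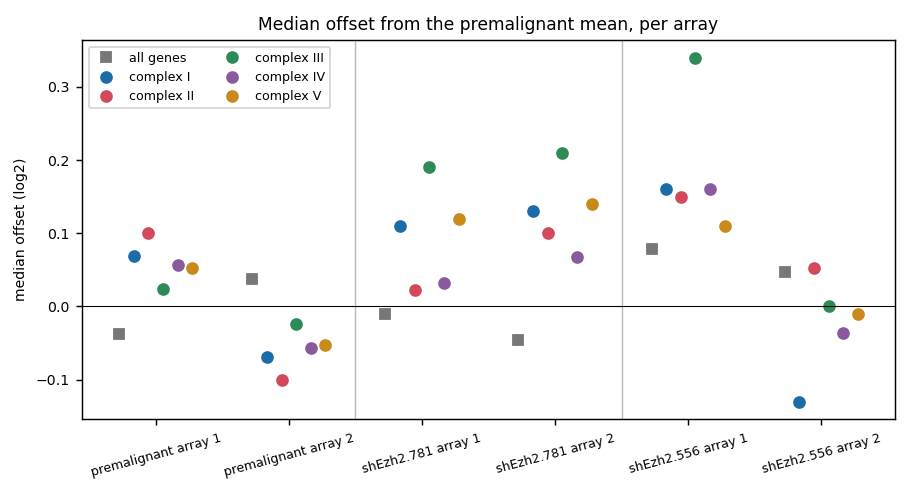
Median offset of each complex and of all genes from the premalignant mean on each of the 6 arrays, as log2 signal on the y axis; each point is the median over the genes of a complex or over all genes, and no error bars are drawn. Complex I is at 0.16 on the first shEzh2.556 array and at -0.13 on the second, while all genes are at 0.078 and 0.047.

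**Figure D4:**
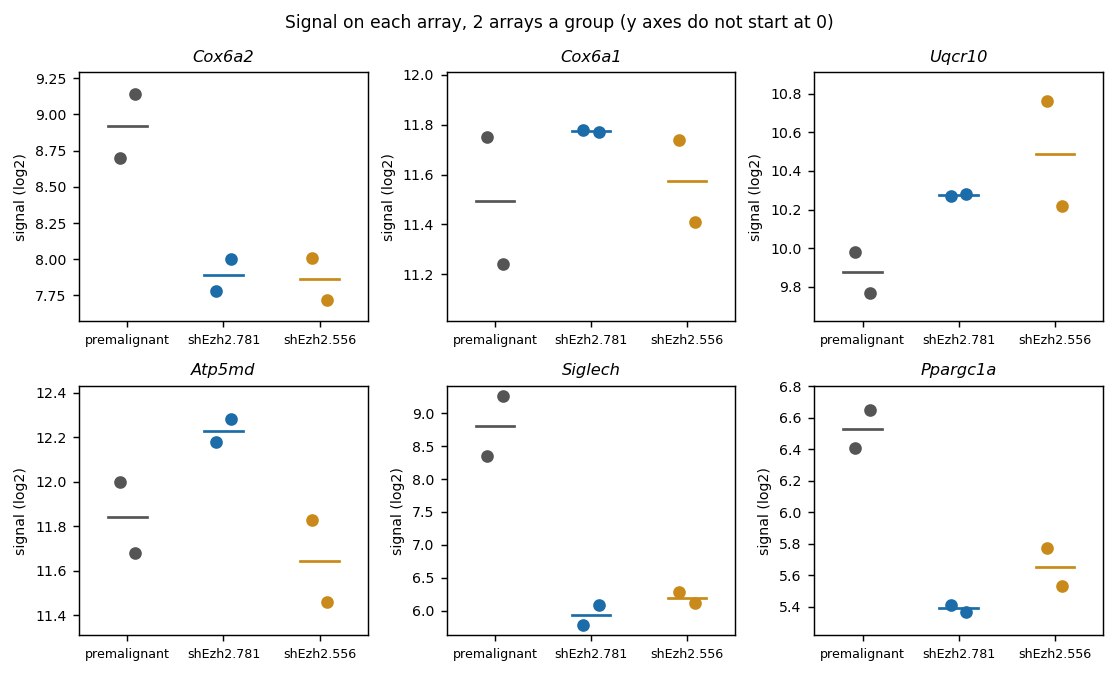
Signal of Cox6a2, Cox6a1, Uqcr10, Atp5md, Siglech and Ppargc1a on each array, as log2 on y axes that do not start at 0, with the groups on the x axes; points are arrays and lines are the means of 2 arrays. Cox6a2, Siglech and Ppargc1a are higher on both premalignant arrays than on any lymphoma array, and Cox6a1 overlaps between groups.

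The motifs of factors known to act on respiratory genes were counted in the promoters, from 250 bases before to 50 after the start, on both strands. RefSeq promoters (GRCm38.p6) were matched for 67 of the 83 genes, and the table held 27025 genes. The NRF1 motif GCGCATGCG was found for 8 of the 67 (11.9%, against 1.95% of all promoters). The ETS motif CCGGAAG, read by GABP among others, was found for 17 (25.4%, against 9.93%), and the YY1 motif AAGATGGC for 10 (14.9%, against 3.19%). The E-box CACGTG, a motif of Myc and other factors, was found for 6 (8.96%, against 8.09%). Matches of different motifs were counted separately even where they overlap, and 34 of the 67 (50.7%) had at least 1, against 20.5%. Promoters rich in G and C hold such letters more often, and base composition was not matched.

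The regulators of mitochondrial biogenesis, 18 of which were measured, included 2 lower genes and none higher in lymphomas (11.1% called, against 15.2% of all genes). Ppargc1a, the coactivator PGC-1alpha, was at 6.41 and 6.65 in premalignant cells, 5.41 and 5.37 with shEzh2.781 and 5.77 and 5.53 with shEzh2.556. All lymphoma arrays were below both premalignant arrays, at a signal below 7 throughout. The difference was -1.01 (SE 0.11, adjusted p = 7.51e-05, limma). Gabpb1, the beta subunit of the ETS factor GABP, was at 9.99 and 9.95 in premalignant cells, 9.62 and 9.53 with shEzh2.781 and 9.13 and 9.32 with shEzh2.556, again with no overlap. Its difference was -0.57 (SE 0.1, adjusted p = 0.00219), and it no longer passed with the 4 lymphomas fitted as 1 group (adjusted p = 0.0638). The others did not pass in lymphomas: Nrf1 at -0.27, Gabpa at -0.25, Yy1 at -0.2, Tfam at -0.09, Esrra at 0.07 and Ppargc1b, a relative of Ppargc1a, at 0.31 (adjusted p = 0.0822).

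Tfam, which packages and transcribes mitochondrial DNA, separated the hairpins. It was at 9.19 and 8.94 in premalignant cells, 9.37 and 9.28 with shEzh2.781 and 8.65 and 8.63 with shEzh2.556. The 3 groups did not overlap, and Tfam was higher with shEzh2.781 than with shEzh2.556 by 0.69 (SE 0.12, adjusted p = 0.00494). Without any one of the 6 arrays it still passed. Tfb1m (0.55, adjusted p = 0.00939), an rRNA methyltransferase of mitochondria, and Polg (0.44, adjusted p = 0.028), the mitochondrial DNA polymerase, were also higher with shEzh2.781; Tfb1m did not pass without the first shEzh2.781 array (adjusted p = 0.0536) or the first shEzh2.556 array (adjusted p = 0.0622). Polg did not pass without any one of the 4 lymphoma arrays (adjusted p from 0.0795 to 0.162) or with quantile normalization (0.061). Counting all 18 regulators, 3 were higher (16.7%, against 10.0% of all genes called) and none lower with shEzh2.781 than with shEzh2.556, and their median was 0.16. With shEzh2.556 against premalignant cells, 6 were lower and none higher (33.3%, against 11.4% of all genes lower). That count fell to 2 without the first premalignant array or without either one of the shEzh2.556 arrays, and with quantile normalization 4 were lower and 2 higher. Tfb1m and Polg, like the genes marked so below, were named after their values were seen.

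Assembly factors of the complexes held a few calls. Of 18 factors of complexes I and II, 1 was higher and 1 lower in lymphomas (11.1% called, against 15.2% of all genes). Ndufaf3, which acts early in complex I assembly, was at 9.76 and 9.78 in premalignant cells, 9.31 and 9.11 with shEzh2.781 and 8.8 and 8.56 with shEzh2.556, so that the 3 groups stood apart. It was lower in lymphomas by 0.83 (-0.83, SE 0.11, adjusted p = 0.000265), and this call was kept without any one array. Ndufaf2 was higher by 0.42 (adjusted p = 0.0233), a call lost without either one of the premalignant arrays (adjusted p = 0.0839 and 0.147), the second shEzh2.781 array (0.0765) or the first shEzh2.556 array (0.0625). Between the hairpins, all 18 differences were above 0, against 40.1% of all genes and 62.7% of genes with a mean signal of at least 7. Their median was 0.26, and 4 passed (22.2%, against 10.0% of all genes): Ndufaf3, Tmem126b, Sdhaf4 and Timmdc1, the last 3 named after their values were seen. None of the 18 passed there without the second shEzh2.556 array, and 1 did with quantile normalization.

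Of 26 factors of complexes III, IV and V, 3 were higher in lymphomas and none lower (11.5% called, against 15.2% of all genes). These were Cox19 (0.48, adjusted p = 0.012) and Cox17 (0.46, adjusted p = 0.0223), which handle copper for complex IV, and Surf1 (0.33, adjusted p = 0.0371), which acts in its assembly. None of the 26 passed without the second premalignant array, and 1 passed without the first shEzh2.556 array. Among 19 genes of electron carriers and coenzyme Q synthesis, 26.3% were called, against 15.2% of all genes. Of these genes 3 were higher (Coq9 at 0.44, adjusted p = 0.00946, Coq2 and Dhodh) and 2 lower (Coq7 at -0.41, adjusted p = 0.0165, and Coq8b, named after its value was seen). None of these 19 passed without the first premalignant array, and 1 in each direction did without the second.

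Of 17 TCA cycle genes, Suclg2 was higher in lymphomas (0.44, adjusted p = 0.0108) and Idh2 lower (-0.31, adjusted p = 0.046), and none passed without either one of the premalignant arrays. The Suclg2 and Idh2 calls were 11.8% of the 17 genes, against 15.2% of all genes. Of 77 mitochondrial ribosomal protein genes, 1 was higher and none lower (1.3% called, against the same 15.2%). This was Mrps12, at 7.83 and 7.76 in premalignant cells and between 8.24 and 8.66 in lymphomas (difference 0.6, SE 0.11, adjusted p = 0.00297), a call kept without any one array. The median of the 77 was 0.13. With quantile normalization 11 of them were higher, with the filter at a mean of 7 there were 6, and with an intensity trend in the variance 8. Among all genes, 3252 of 19938, 2740 of 10306 and 3414 of 19938 were called in either direction under these settings.

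**Figure D5:**
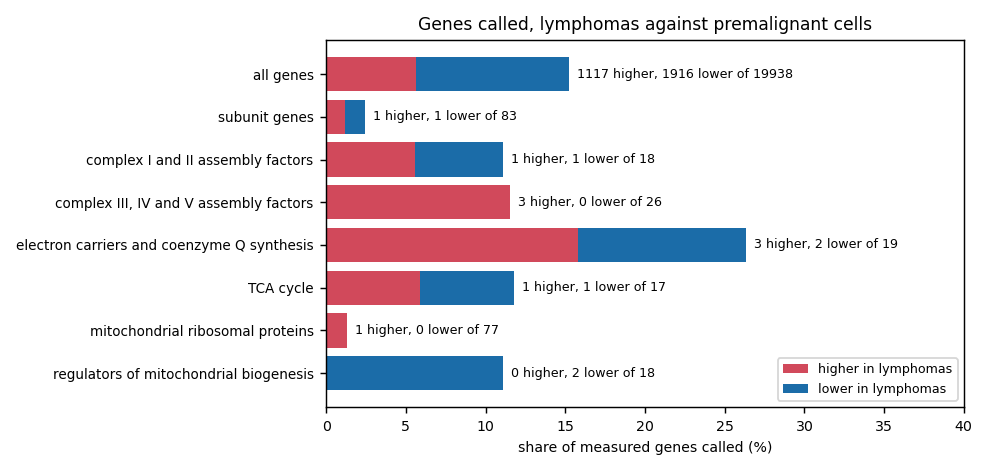
Share of measured genes called in lymphomas against premalignant cells, in percent on the x axis, for all genes, the subunit genes and the 6 related gene lists on the y axis; bars are stacked by direction and carry the counts, with no error bars. The subunit genes reach 2.41% and all genes 15.2%.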

How the data were processed

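Expression was measured on 6 Mouse Gene 1.0 ST arrays, per the labels, with 2 arrays in each of 3 groups. The authors deposited 1 normalized log2 signal per probe set and array; how background, normalization and summarization were handled is not given in the sources used here. The medians of the arrays were 6.75 to 6.91, which leaves small offsets between arrays in the differences; precision is limited by having 6 arrays.

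The platform annotation pairs 21789 of the 35512 probe sets with a single gene symbol, and these were used; 1621 carry several symbols and 12102 carry none. No symbol changed against the reference gene table. The brightest probe set was kept for each of 19938 genes, which left out 25 probe sets of the 17 subunit genes with several. Across the probe sets of these 17 genes, lymphoma differences ranged by 0.03 at the median and by 0.17 at most (Cox7a2l). Probe sets that Cox7c and Ndufb4 share with other symbols were not used.

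One limma fit (version 3.58.1, R 4.3.3) covered the 3 groups, without intercept or covariates (8.51 prior and 3 residual degrees of freedom). Adjustment was by Benjamini-Hochberg over all genes, calls were made at 0.05, and intervals are 95%. The fit was tested on simulated arrays. Named were, by rule, called genes per complex by size, all complex II and isoform family genes, and up to 4 genes per related list by p; genes outside this rule were named after their values were seen. Among subunit genes these were those near the threshold or with wide intervals (Ndufa1, Ndufa2, Ndufa7, Ndufa9, Ndufa12, Ndufb2, Ndufb10, Ndufs4, Ndufs6, Ndufv3, Uqcr11, Uqcrc1, Cyc1 and Atp5l), and others are marked in the text. The subunit genes, related lists and rule were chosen with earlier results of these data known, and the width of 0.5 that counts as narrow was set after seeing the values. Of 186 listed related genes 175 were measured. Alternatives were quantile normalization, arrays centred on their median, a mean of at least 7, the mean of a gene's probe sets, an intensity trend in the variance, only the groups compared, 1 lymphoma group, a replicate block, and leaving out each array. Figures were made with matplotlib 3.10.9, pandas 2.3.3 and numpy 2.4.6 in Python 3.11.15.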

Additional observations from a re-analysis of the deposited data

Results flagged for a closer look

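Of the 83 subunit genes, Atp5md differed between the hairpin groups, higher with shEzh2.781 by 0.58 (adjusted p = 0.0338, limma), and this is described with its arrays above. The other genes that differed between the hairpins by the same test were all higher with shEzh2.781. Among complex I and II assembly factors they were Sdhaf4 by 0.84 (adjusted p = 0.0243), Tmem126b by 0.77 (adjusted p = 0.0174), Ndufaf3 by 0.53 (adjusted p = 0.0245) and Timmdc1 by 0.4 (adjusted p = 0.0424). With the mean of its probe sets, Sdhaf4 differed by 0.23 and did not pass (adjusted p = 0.283). Among regulators of mitochondrial biogenesis they were Tfam by 0.69 (adjusted p = 0.00494), Tfb1m by 0.55 (adjusted p = 0.00939) and Polg by 0.44 (adjusted p = 0.028). The complex IV assembly factor Coa3 was higher by 0.45 (adjusted p = 0.0489), the TCA cycle gene Idh2 by 0.45 (adjusted p = 0.0281) and the mitochondrial ribosomal protein gene Mrps17 by 0.5 (adjusted p = 0.0329). Coa3 and Mrps17 were named after their values were seen.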

How the results depend on the processing

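The Cox6a2 call was made under every alternative run in each comparison with premalignant cells; the Uqcr10 and Atp5md calls were not. Over the subunit genes named by rule, 340 results kept their direction and side of the threshold, 10 lost a call, 2 gained one and 21 changed sign. All of the lost calls were of Uqcr10 or Atp5md, and most of the kept results were of genes not called in the main fit. Outside lymphomas against premalignant cells, only genes called in the main fit were counted. Calls gained elsewhere, such as by Cox7a1 with shEzh2.781 and by Ndufa2 with shEzh2.556, are therefore not in these counts. For genes of related lists 531 results kept both and 193 lost a call, and only results called in the main fit were counted. In lymphomas against premalignant cells, 2 subunit genes were higher with an intensity trend and 0 with the 4 lymphomas as 1 group, where 1091 of all genes were called in place of 3033. With shEzh2.781 against premalignant cells, 1 was higher with centred arrays, 2 with a trend and 1 with only the groups compared, and 2 were lower with a mean of at least 7 and with only the groups compared. With shEzh2.556, 2 were higher with quantile normalization and 3 with a trend, and 2 were lower with centred arrays, a mean of at least 7, the mean of probe sets or a trend. Between the hairpins, 0 were higher with quantile normalization, 5 with centred arrays and 5 with a trend, and the median of subunit genes was 0.19 with centred arrays.

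Leaving out each array in turn gave 1721 to 2833 genes called in lymphomas against premalignant cells, 1103 to 2048 with shEzh2.781, 1949 to 3669 with shEzh2.556 and 718 to 2085 between the hairpins. The medians of the subunit genes were 0.012 to 0.16, 0.061 to 0.19, -0.046 to 0.16 and -0.063 to 0.17 in the same order. The counts of higher subunit genes were 0 to 6, 0 to 1, 0 to 4 and 0 to 2, and those of lower ones 1 to 2 in each comparison with premalignant cells and 0 between the hairpins. Where 1 array was left, it is assumed to vary like the other groups.

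The sign changes were all of uncalled genes in lymphomas against premalignant cells, and their cause was not tested. Without the second premalignant array Atp5g3 was at -0.033, Atp5md at -0.066, Cox6a1 at -0.081, Cox6b1 at -0.01, Cox6b2 at 0.012, Cox8a at -0.034, Cox8c at 0.034, Ndufa4 at -0.13, Sdha at -0.00033 and Sdhb at -0.024. Without the first, Cox7a2 was at 0.0041 and Sdhc at 0.073. Sdhc was at 0.024 with quantile normalization, 0.0054 with centred arrays, 0.026 without the second shEzh2.781 array and 0.0086 without the second shEzh2.556 array. Cox7a2 (0.045) and Sdha (-0.021) changed sign without the second shEzh2.556 array, Cox8a (-0.02) and Ndufa4 (-0.058) without the first, and Cox8a also with quantile normalization (-0.0085). Over the arrays left out one at a time, the lowest and highest differences were Atp5g3 -0.033 to 0.1, Atp5md -0.066 to 0.26, Cox6a1 -0.081 to 0.43, Cox6b1 -0.01 to 0.26, Cox6b2 -0.34 to 0.012, Cox7a2 -0.16 to 0.045, Cox8a -0.034 to 0.08, Cox8c -0.11 to 0.034, Ndufa4 -0.13 to 0.19, Sdha -0.021 to 0.082, Sdhb -0.024 to 0.17 and Sdhc -0.12 to 0.073.

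Over all genes, deviations of same-numbered arrays correlated weakly, at -0.0915, -0.124 and 0.0642, which cannot settle whether the samples were paired. Of the subunit genes, 73.5% were lower on the second array in premalignant cells, 34.9% with shEzh2.781 and 89.2% with shEzh2.556. With the replicate number as a block, the counts of subunit genes called in the 4 comparisons were the same, and 2889, 2078, 3371 and 1783 of all genes were called in place of 3033, 2161, 3635 and 2000. With 2 arrays a group, differences of subunit genes smaller than their intervals could not be seen.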
